A study of Mus musculus with 6 samples.

Results

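Nucleolar ribosome assembly factors are proteins that fold, cut, modify and carry ribosomal RNA precursors before the finished subunits reach the cytoplasm. The genes described here were taken by name, as every gene symbol in the expression table that starts with Utp, Nop, Rrp, Nol, Gnl or Noc followed by a digit. The rule found 44 genes among 22614 rows, of which 22105 carried Ensembl gene identifiers. By prefix there were 11 Utp, 10 Nol, 8 Nop, 8 Rrp, 4 Gnl and 3 Noc genes. RNA sequencing covered 6 libraries of RAW264.7, a mouse macrophage cell line, in groups of 3. Cells of one group were kept with phosphate buffered saline (PBS) and those of the other with the nanoparticle CM-PEG-PLGA@DOX/R848, given so that the DOX content equalled 2 µg/mL. Exposure lasted 24 h in both. The particle joins doxorubicin (DOX), which poisons topoisomerase II, with resiquimod (R848), which activates Toll-like receptors, and its name also lists the polymers PEG and PLGA. The labels do not spell out CM, and they give no library with a single component, so the parts of the particle cannot be told apart. They number the replicates in each group without saying whether each came from its own culture. The spread behind every p-value is therefore that of these samples alone and may be technical.

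Ribosomes are made in the nucleolus around a long precursor transcribed by RNA polymerase I. The small subunit processome, a large particle built on the nascent precursor with the U3 small nucleolar RNA (snoRNA), prepares the 40S subunit. A separate series of particles, driven by helicases and GTPases, prepares the 60S subunit. Small nucleolar ribonucleoproteins (snoRNPs) of the box C/D and box H/ACA classes guide methylation and pseudouridylation of the ribosomal RNA. Assembly is one of the largest costs of a growing cell, and in macrophages, as elsewhere, it is tied to growth and protein output. By role, 22 of the 44 genes belong to the small subunit processome or 40S assembly, 15 to 60S assembly and 3 to the snoRNP cores. No assembly role was assumed for the other 4, Nol3, Nol4, Nol4l and Gnl1, which the rule took by their names. Nol3 encodes a repressor of apoptosis that acts outside the nucleolus, so the label holds for most but not all of the genes.

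Values are taken to be FPKM, fragments scaled to transcript length and library size. The file does not name its unit, TPM with rows removed could not be told apart from it, and comparisons of level between genes rest on that reading. PBS libraries listed 12678 to 12872 genes above 0 and nanoparticle libraries 15723 to 15989. All 10 macrophage markers checked had a mean of at least 1 FPKM in both groups. Their summed level ranged from 3749 to 3890 FPKM in PBS and from 1693 to 1811 FPKM in nanoparticle libraries. The 6 marker sets of other cell types had no marker at a mean of 1 FPKM in either group. Their summed levels were at most 0.435 FPKM in PBS and 1.41 FPKM in nanoparticle libraries, both from the endothelial set. Epithelial markers were all at 0 in PBS, as were the neutrophil markers Elane, Ltf, Ly6g and Mpo.

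The assembly factor transcripts did not move as one block. A gene was tested if its mean over the 6 libraries was at least 1 FPKM. Of the 44 genes, 42 passed that filter, and 13 of these rose, another 13 fell and 16 did not pass the test (limma on log2(FPKM + 1), Benjamini-Hochberg adjusted p under 0.05 over all 10229 genes tested). The called share was 61.9% of the assembly factors, beside 77.2% of all genes tested. Among all genes tested 42.7% were higher and 34.5% lower. The median log2 fold change was 0.078 for the assembly factors and 0.076 for all genes tested, and the median of its absolute size was 0.26 and 0.46. Libraries of the 2 groups did not overlap at 28 of the 42 genes, 13 above and 15 below PBS (66.7%, beside 78.8% of all genes tested, of which 43.7% lay above and 35.1% below). A log2 fold change of at least 1 in size was reached by 3 of them, Utp23, Rrp1b and Noc2l, beside 17.7% of all genes tested.

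The split between rises and falls depended on the scaling between libraries. Median-ratio scaling moved the median log2 fold change of all genes by -0.11, and 10 assembly factors were then higher and 18 lower. Of the calls of assembly factors 35.7% were then rises in place of 50%, beside 46.7% in place of 55.3% for all genes called. Upper quartile scaling gave the same 10 and 18, beside 48.2% rises among all genes called. No assembly factor called with the deposited values changed direction under either scaling. The calls of Rrp1, Rrp8 and Noc3l were lost under both, and Gnl3l, Rrp15, Nop9, Utp11 and Nop10 then passed as lower.

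Summed over the 44 genes, assembly factor transcripts made up 1809 ± 14.2 FPKM in PBS and 1864 ± 13.4 FPKM in nanoparticle libraries (± gives the SD over n = 3 libraries here and throughout). As a share of all FPKM in the library this was 0.392% ± 0.00402 and 0.404% ± 0.0109, and the shares of the 2 groups overlapped. FPKM are relative within a library, and in bulk samples fewer expressing cells and less RNA per cell cannot be told apart. Tested genes ranged from a mean of 1.38 FPKM to 211 FPKM over all libraries, 39 of 42 were at 10 FPKM or more and 3 at 100 FPKM or more (Nop56, Rrp1 and Nop16).

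**Figure D1:**
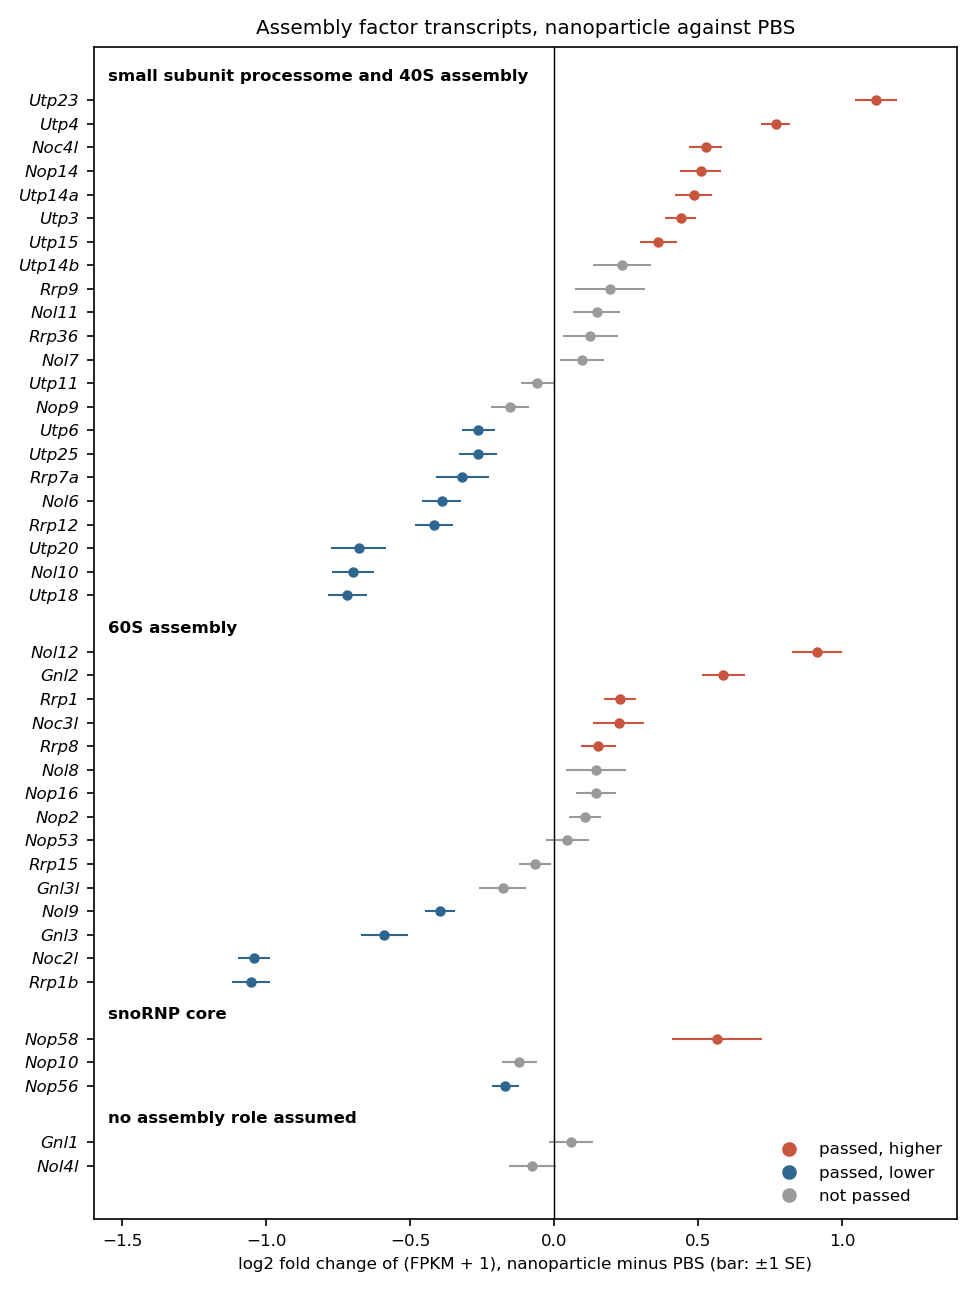
Log2 fold change of each of the 42 tested assembly factors (points, nanoparticle minus PBS on the log2(FPKM + 1) scale) with bars of 1 SE, grouped by role and coloured by the limma call. The range runs from -1.05 for Rrp1b to 1.12 for Utp23, and rises and falls stand side by side in the small subunit, 60S and snoRNP groups.

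The small subunit group had 7 rises, 8 falls and 7 genes that did not pass. The called share was 68.2%, beside 77.2% of all genes tested, of which 42.7% were higher and 34.5% lower. Utp23, a PIN-domain protein of early 40S assembly, had the largest rise of all the genes. It was listed at 5.24, 5.75 and 5.05 FPKM in the PBS libraries and 13.1, 13.2 and 12.1 FPKM in the nanoparticle libraries. The nanoparticle libraries lay 2.39-fold above PBS as a ratio of means, with a gap between the groups (limma: log2 fold change 1.12, SE 0.07, adjusted p = 4.7e-07). Utp23 (ENSMUSG00000022313, chromosome 15, 51877429 to 51884614, GRCm38) has a longest annotated transcript that shares stretches of 300 to 415 bases, at 90% identity or more, with transcripts of 137 other genes, and their part in its value was not tested.

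Utp4, also called cirhin, is a WD-repeat protein of UTP-A, the first complex to bind the precursor. Its transcript stood at 67.2, 63.9 and 63.2 FPKM in the PBS libraries and 109.6, 111 and 113 FPKM in the nanoparticle libraries. All 3 nanoparticle libraries were above all PBS libraries, 1.72-fold higher in the mean (limma: log2 fold change 0.77, SE 0.05, adjusted p = 4.2e-07). Utp15, another WD-repeat subunit of UTP-A, rose from 19.2 ± 0.487 to 24.9 ± 1.56 FPKM (SD, n = 3; limma: log2 fold change 0.36, SE 0.06, adjusted p = 5.2e-04). The third UTP-A subunit among these genes, Nol11, had 31.8, 34.3 and 35.4 FPKM in the PBS libraries and 34.0, 36.8 and 42.3 FPKM in the nanoparticle libraries, which overlap. Nol11 did not pass the test (limma: log2 fold change 0.15, SE 0.08, adjusted p = 0.13), and it passed as higher when the fit held the replicate number as a block (limma adjusted p = 0.028 with the replicate block). It also passed without nanoparticle replicate 1 (limma adjusted p = 0.029). With the block 35 of the 42 genes were called, 19 higher and 16 lower, beside 81.6% of all genes tested, and all 26 calls made without it were among them.

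UTP-B, the complex that joins next and holds the U3 snoRNA, is represented by Utp18 and Utp6, and both fell. Utp18, a WD-repeat subunit, was listed at 35.3, 34.9 and 35.4 FPKM in the PBS libraries and 19.2, 21.5 and 22.5 FPKM in the nanoparticle libraries. PBS libraries were within 1 FPKM of each other and all lay above the nanoparticle libraries, which were 1.67-fold lower in the mean (limma: log2 fold change -0.72, SE 0.07, adjusted p = 5.2e-06). Utp6 fell from 34.8 ± 1.29 to 28.8 ± 0.928 FPKM (limma: log2 fold change -0.26, SE 0.06, adjusted p = 0.0019).

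The promoter windows of Utp4 and Utp18, picked after their values were seen, are shown because these genes moved in opposite directions and their windows hold the same 2 motifs, and that of Nop2, a 60S factor that did not pass the test, because it holds them too. Windows run from 250 bases before to 50 bases after a RefSeq start (GRCm38.p6, 5′ to 3′ on the gene's strand). Capitals mark CACGTG, the E-box that MYC and related factors bind, CTTCCGG, the core bound by ETS factors, and CATGTG, a variant E-box, each searched on both strands. The palindromic motif known for the factor Kaiso was searched in the same way. None of the 4 motifs contains another. The windows are chr8:106893390-106893689 on the plus strand for Utp4, chr11:93885717-93886016 on the minus strand for Utp18 and chr6:125131633-125131932 on the plus strand for Nop2.
Utp4: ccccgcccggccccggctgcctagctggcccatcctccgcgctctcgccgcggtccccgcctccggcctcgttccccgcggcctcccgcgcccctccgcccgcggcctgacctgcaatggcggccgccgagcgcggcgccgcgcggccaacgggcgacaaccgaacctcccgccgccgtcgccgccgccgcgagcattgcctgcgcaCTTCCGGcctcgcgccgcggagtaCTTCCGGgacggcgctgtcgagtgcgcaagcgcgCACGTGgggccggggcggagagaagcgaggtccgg
Utp18: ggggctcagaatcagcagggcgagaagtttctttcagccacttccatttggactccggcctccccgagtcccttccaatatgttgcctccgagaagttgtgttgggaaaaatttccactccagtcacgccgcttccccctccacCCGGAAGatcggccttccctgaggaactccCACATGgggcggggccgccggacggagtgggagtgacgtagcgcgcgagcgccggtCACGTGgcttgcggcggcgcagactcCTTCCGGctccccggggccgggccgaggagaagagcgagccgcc
Nop2: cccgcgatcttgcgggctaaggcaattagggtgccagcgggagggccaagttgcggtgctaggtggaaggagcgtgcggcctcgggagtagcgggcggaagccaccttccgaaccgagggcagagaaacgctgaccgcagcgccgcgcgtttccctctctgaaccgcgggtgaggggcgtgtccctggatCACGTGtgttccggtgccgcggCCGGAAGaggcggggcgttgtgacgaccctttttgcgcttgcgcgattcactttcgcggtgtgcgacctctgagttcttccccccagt

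Utp4 holds CACGTG 15 bases after the start and CTTCCGG 43 and 19 bases before it. In Utp18, CACGTG lies 20 bases before the start and CTTCCGG 106 bases before and 6 bases after it, with CATGTG 76 bases before. Nop2 has CACGTG 60 and CTTCCGG 38 bases before the start. RefSeq windows matched 34 of the 44 genes. CACGTG was held by 8 of these 34 (23.5%), beside 12.1% of 8104 tested genes with a window and 8.09% of all 27025 genes with one. Of the 8, Utp4 rose, Utp18, Utp20, Utp25 and Rrp7a fell, and Nop2, Nol11 and Utp14b did not pass. Of the 26 without it, 10 rose, 6 fell and 10 did not pass. CTTCCGG was held by 11 of 34 (32.4%, beside 22.9% of tested genes and 9.93% of all genes), with 4 rises, 3 falls and 4 that did not pass. CATGTG was held by 5 of 34 (14.7%, beside 9.96% of tested genes and 15.9% of all genes). The Kaiso motif was found in 1 of 34, Nol9, which fell (2.94%, beside 1.38% of tested genes and 0.525% of all genes). Median GC content of the windows was 60.3% for the assembly factors and 61.0% for tested genes. Calls by motif were not counted over all genes tested. The rises and falls of genes with and without a motif therefore have no background, and whether a motif goes with direction was not tested. These matches are a description of the letters, and no binding was measured.

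Some subunits that act with Nop14 in the processome were among the rises. Emg1, which binds Nop14 but is not taken by the naming rule, fell (limma: log2 fold change -0.61, adjusted p = 3.3e-06). Nop14 itself was listed at 35.3, 35.4 and 35.8 FPKM in the PBS libraries and 47.8, 48.8 and 56.8 FPKM in the nanoparticle libraries (limma: log2 fold change 0.51, SE 0.07, adjusted p = 8.9e-05). Noc4l, its direct partner, had 45.5, 43.9 and 42.8 FPKM in the PBS libraries and 67.4, 62.9 and 61.6 FPKM in the nanoparticle libraries (limma: log2 fold change 0.53, SE 0.06, adjusted p = 1.5e-05). Both genes were higher in all 3 nanoparticle libraries, 1.44-fold and 1.45-fold in the mean. Utp14a, which stimulates the helicase that frees U3 from the precursor, had 25.2, 27.2 and 26.6 FPKM in the PBS libraries and 34.6, 37.8 and 39.3 FPKM in the nanoparticle libraries (limma: log2 fold change 0.48, SE 0.06, adjusted p = 7.3e-05). Utp14b, an intron-hosted copy of that gene inside Acsl3, was far lower at 1.12, 1.05 and 1.39 FPKM in the PBS libraries and 1.34, 1.57 and 1.82 FPKM in the nanoparticle libraries. Its groups overlapped and the test was not passed (limma: log2 fold change 0.24, SE 0.10, adjusted p = 0.056), while the block made it pass (limma adjusted p = 0.034 with the replicate block). It also passed without PBS replicate 3 or nanoparticle replicate 1 (limma adjusted p = 0.034 and 0.029). No stretch of 300 bases at 90% identity joined the transcripts of Utp14a and Utp14b, but Utp14b shares 244 exonic bases with Acsl3 on the same strand (15.9 FPKM in PBS and 9.45 FPKM in nanoparticle libraries), so its fragments may in part be those of Acsl3 or the reverse. Utp3, an intronless gene for a processome protein that binds the Mpp10 complex, rose from 52.2 ± 0.994 to 71.2 ± 3.28 FPKM (limma: log2 fold change 0.44, SE 0.05, adjusted p = 4.2e-05).

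The other 6 small subunit falls were those of Utp20, Nol10, Rrp12, Nol6, Rrp7a and Utp25. Utp20, a very long HEAT-repeat protein whose gene has up to 62 exons, was listed at 14.8, 13.3 and 16.0 FPKM in the PBS libraries and 8.33, 8.07 and 10.1 FPKM in the nanoparticle libraries. Nol10, a WD-repeat protein of the processome, had 26.4, 23.7 and 26.0 FPKM in the PBS libraries and 14.2, 15.0 and 16.4 FPKM in the nanoparticle libraries. Both were about equally lower, 1.67-fold and 1.66-fold in the mean, without overlap (Utp20 limma: log2 fold change -0.68, SE 0.10, adjusted p = 1.1e-04). For Nol10 the change was -0.70 (limma adjusted p = 1.1e-05). Rrp12, a HEAT-repeat protein of subunit export, had 21.6, 20.3 and 20.4 FPKM in the PBS libraries and 16.5, 14.6 and 14.8 FPKM in the nanoparticle libraries (limma: log2 fold change -0.42, SE 0.07, adjusted p = 2.8e-04). Nol6 and Rrp7a, which form UTP-C with Rrp36, fell from 26.7 ± 1.24 to 20.2 ± 1.36 FPKM and from 28.3 ± 1.78 to 22.5 ± 2.99 FPKM. Their log2 fold changes were -0.39 and -0.32 (limma adjusted p = 4.5e-04 and 0.0098). Rrp7a overlaps Serhl on the opposite strand over 12.5% of its exonic bases, and Serhl had a mean of 27.8 FPKM in PBS and 29.6 FPKM in nanoparticle libraries. The processed pseudogene Gm3436 matches Rrp7a over 840 bases at 98.2% identity, so the division of fragments between them is uncertain. The part of such opposite-strand partners in the values, here and for the genes below, was not tested. Utp25, a helicase-like protein, fell from 12.2 ± 0.611 to 9.97 ± 0.136 FPKM (limma: log2 fold change -0.26, SE 0.07, adjusted p = 0.0042).

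The remaining small subunit genes did not pass. Rrp9, the protein specific to the U3 snoRNP, had 63.2, 59.0 and 49.5 FPKM in the PBS libraries and 76.2, 67.0 and 54.7 FPKM in the nanoparticle libraries. The groups overlap, but each nanoparticle library was above the PBS library of the same number, and the log2 fold change of 0.20 passed with the block (limma adjusted p = 0.17 without it and 0.0043 with it). Rrp9 overlaps Parp3 on the opposite strand over 20 bases, and Parp3 had a mean of 4.59 FPKM in PBS and 30.7 FPKM in nanoparticle libraries. Rrp36 behaved alike, with 19.7, 18.9 and 16.1 FPKM in the PBS libraries and 21.2, 21.2 and 17.6 FPKM in the nanoparticle libraries. It passed with the block (limma adjusted p = 0.25 without and 0.035 with it). Without nanoparticle replicate 3, Rrp9 and Rrp36 also passed as higher (limma adjusted p = 0.012 and 0.041). Nop9, an RNA-binding protein of the Pumilio kind, had 24.3, 24.97 and 23.7 FPKM in the PBS libraries and 22.8, 22.5 and 20.1 FPKM in the nanoparticle libraries, all 3 below PBS. Its log2 fold change of -0.15 was close to the threshold (limma adjusted p = 0.055, 0.022 with the block and 0.037 without nanoparticle replicate 1). Nol7 had 54.8, 58.1 and 61.4 FPKM in the PBS libraries and 55.9, 64.5 and 66.5 FPKM in the nanoparticle libraries and Utp11 52.4, 59.4 and 56.5 FPKM in the PBS libraries and 53.4, 54.1 and 53.8 FPKM in the nanoparticle libraries. Both overlapped between groups (limma adjusted p = 0.26 and 0.38), and Nol7 passed as higher without nanoparticle replicate 1 (0.032). Nol7 shares 16.5% of its exonic bases with Ranbp9 on the opposite strand, at a mean of 14.3 FPKM in PBS and 18.7 FPKM in nanoparticle libraries.

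**Figure D2:**
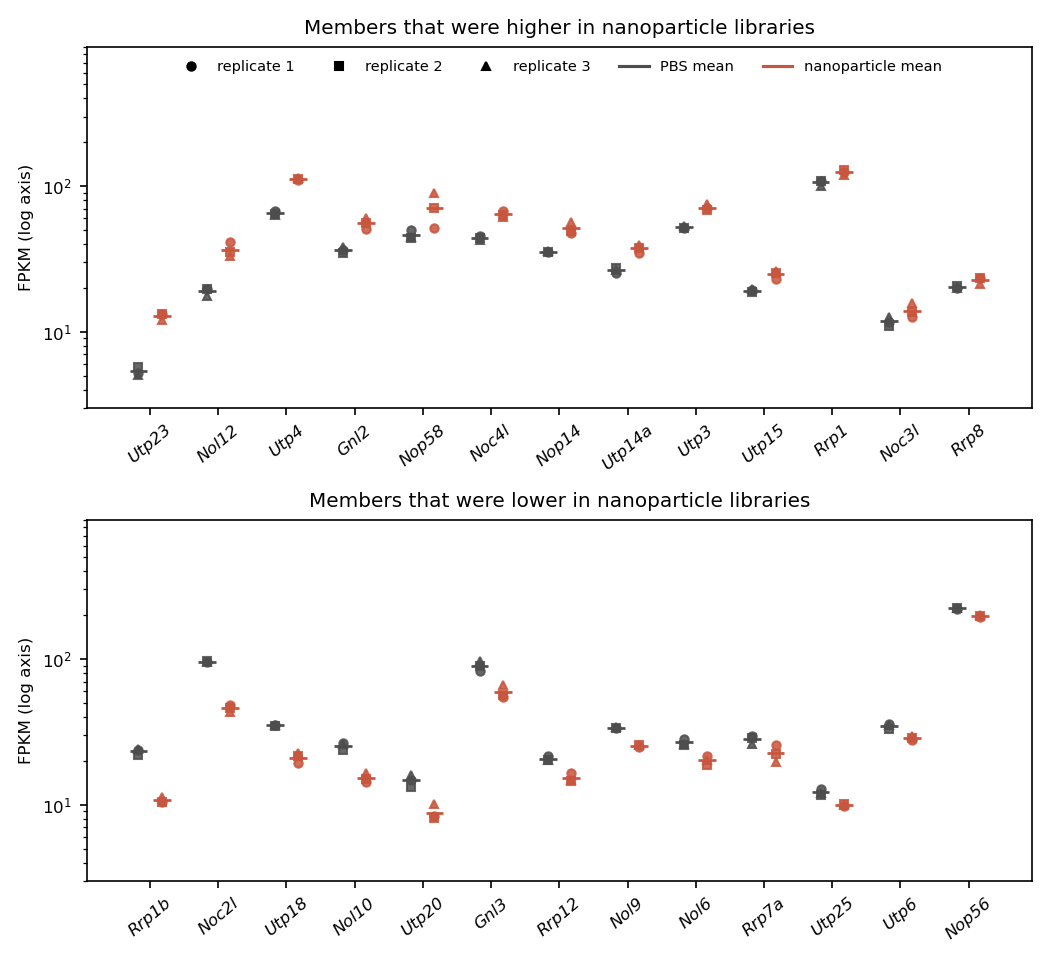
FPKM (log axis) of the 13 assembly factors that rose and the 13 that fell, with 1 point per library (shape gives the replicate number) and a bar at the mean of each group of 3. Only Noc3l has overlapping groups among the 26, and Nop58 has the widest spread, 51.9 to 89.0 FPKM in nanoparticle libraries.

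Among 60S factors 5 rose, 4 fell and 6 did not pass (60% called, beside 77.2% of all genes tested). The deepest falls of all the genes were here. Noc2l, which escorts early 60S particles and is also known as an inhibitor of histone acetyltransferases, was listed at 94.7, 96.8 and 94.9 FPKM in the PBS libraries and 48.1, 46.0 and 43.5 FPKM in the nanoparticle libraries. It was 2.08-fold lower in the mean, with a wide gap between groups (limma: log2 fold change -1.04, SE 0.05, adjusted p = 8.8e-08). Noc2l (ENSMUSG00000095567, chromosome 4, 156236010 to 156247616, GRCm38) overlaps Samd11 on the opposite strand, which had a mean of 0.0539 FPKM in PBS and 0.05004 FPKM in nanoparticle libraries. Its partner Noc3l was slightly higher, 11.8 ± 0.824 against 13.9 ± 1.61 FPKM (SD, n = 3; limma: log2 fold change 0.22, SE 0.09, adjusted p = 0.042). The groups overlap at Noc3l. Its call was lost without PBS replicate 1 or 2 or nanoparticle replicate 2 or 3 (limma adjusted p of 0.069 to 0.14), and without any filter on low values or after rescaling to TPM (0.082 and 0.066).

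Rrp1 and Rrp1b, a pair of homologous pre-60S proteins, went opposite ways. Rrp1 had 108, 109 and 101 FPKM in the PBS libraries and 125, 129 and 119 FPKM in the nanoparticle libraries, all nanoparticle libraries above PBS (limma: log2 fold change 0.23, SE 0.06, adjusted p = 0.0039). Rrp1b, which also binds chromatin, had 23.7, 22.1 and 24.2 FPKM in the PBS libraries and 10.5, 10.4 and 11.3 FPKM in the nanoparticle libraries. That is 2.17-fold lower in the mean and the largest fall of all the genes (limma: log2 fold change -1.05, SE 0.07, adjusted p = 3.1e-07). In PBS the level of Rrp1 was above that of Rrp1b in every library, and the distance was wider in the nanoparticle libraries.

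The circularly permuted GTPases named Gnl, most of which act as switches on pre-60S particles, also divided. Gnl2, the switch on late nuclear particles, was listed at 36.5, 34.8 and 38.4 FPKM in the PBS libraries and 50.3, 55.7 and 60.8 FPKM in the nanoparticle libraries. It was 1.52-fold higher (limma: log2 fold change 0.59, SE 0.07, adjusted p = 5.1e-05). Gnl3, known as nucleostemin and abundant in proliferating cells, had 83.2, 88.9 and 97.0 FPKM in the PBS libraries and 54.9, 56.6 and 66.6 FPKM in the nanoparticle libraries. It was 1.51-fold lower, without overlap (limma: log2 fold change -0.59, SE 0.08, adjusted p = 1.1e-04). Gnl3l, the paralog of nucleostemin, had 13.1, 13.8 and 15.1 FPKM in the PBS libraries and 11.1, 12.4 and 13.2 FPKM in the nanoparticle libraries. These overlap, and Gnl3l did not pass (limma: log2 fold change -0.18, SE 0.08, adjusted p = 0.067). It passed as lower with the block (limma adjusted p = 0.012), without nanoparticle replicate 3 (0.023) and under the scalings above. Gnl1, for which no assembly role was assumed, had 35.5, 33.9 and 33.4 FPKM in the PBS libraries and 39.9, 35.3 and 32.3 FPKM in the nanoparticle libraries and did not pass (limma adjusted p = 0.50). Gnl1 shares 12.5% of its exonic bases with Prr3 on the opposite strand, at 9.78 FPKM in PBS and 17.7 FPKM in nanoparticle libraries.

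Factors of RNA cutting and modification changed in both directions. Nol12, a nucleolar RNA-binding protein needed for precursor cleavage, was listed at 19.5, 19.7 and 17.5 FPKM in the PBS libraries and 41.5, 35.2 and 33.0 FPKM in the nanoparticle libraries. Its nanoparticle libraries were all above PBS, 1.94-fold in the mean (limma: log2 fold change 0.91, SE 0.09, adjusted p = 6.6e-06). Nol9, a polynucleotide kinase that acts on the spacer between the large ribosomal RNAs, had 33.8, 33.4 and 33.9 FPKM in the PBS libraries and 24.9, 25.6 and 25.5 FPKM in the nanoparticle libraries. The PBS and nanoparticle libraries of Nol9 were each within 1 FPKM of one another and did not overlap (limma: log2 fold change -0.40, SE 0.05, adjusted p = 6.2e-05). Rrp8, a methyltransferase for an adenosine of the large ribosomal RNA, was higher at 22.6 ± 1.19 against 20.2 ± 0.427 FPKM (limma: log2 fold change 0.15, SE 0.06, adjusted p = 0.043). The call of Rrp8 was lost without PBS replicate 1, 2 or 3 or nanoparticle replicate 1 or 2 (limma adjusted p of 0.065 to 0.14) and without the intensity trend (0.052). Rrp8 shares 9.98% of its exonic bases with Ilk on the opposite strand, at 33.7 FPKM in PBS and 33.3 FPKM in nanoparticle libraries.

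Of the 60S genes that did not pass, Nop2, a cytosine methyltransferase, had 89.3, 87.3 and 84.7 FPKM in the PBS libraries and 99.0, 92.6 and 89.995 FPKM in the nanoparticle libraries. These do not overlap, and Nop2 passed as higher with the block (log2 fold change 0.11, limma adjusted p = 0.10 without and 0.034 with it). Nop16 had 111, 106 and 103 FPKM in the PBS libraries and 121, 126 and 107 FPKM in the nanoparticle libraries. It too passed with the block (limma adjusted p = 0.078 without and 0.026 with it). Without nanoparticle replicate 3 both Nop2 and Nop16 passed as higher (limma adjusted p = 0.044 and 0.0042). Rrp15 had 41.0, 43.6 and 40.1 FPKM in the PBS libraries and 38.8, 40.1 and 39.9 FPKM in the nanoparticle libraries, just below PBS without overlap (log2 fold change -0.07, limma adjusted p = 0.28). Nop53, which brings the RNA exosome to the pre-60S particle, had 44.5, 43.3 and 38.9 FPKM in the PBS libraries and 46.3, 44.7 and 39.8 FPKM in the nanoparticle libraries. Nol8 had 14.8, 13.2 and 16.2 FPKM in the PBS libraries and 14.8, 15.5 and 19.2 FPKM in the nanoparticle libraries. Both overlapped between groups, with limma adjusted p = 0.59 and 0.22. Processed pseudogenes also match Nol8 over 648 bases at 91.0% and Rrp15 over 405 bases at 90.6% identity. A processed pseudogene, Gm6085, matches Nop53 over 1486 bases at 93.3% identity, and how fragments were divided between them is uncertain.

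**Figure D3:**
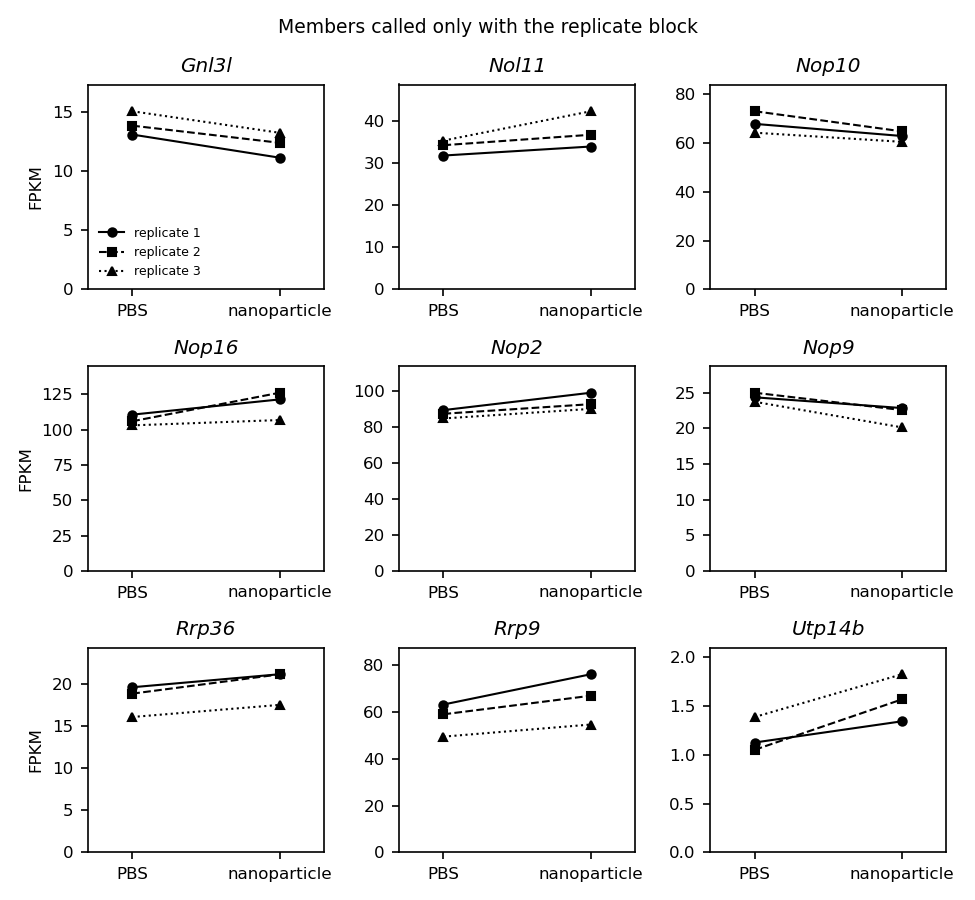
FPKM (axes from 0) of the 9 assembly factors that passed the test with the replicate block but not without it, with a line for each replicate number from PBS to nanoparticle. In each panel the 3 lines run the same way, as for Rrp9, where every nanoparticle library is above the PBS library of its number. The genes were chosen by the blocked fit, which favours such agreement, so it lends the calls no further weight. The labels do not state that same-numbered libraries are pairs.

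The snoRNP cores held the gene with the highest level, Nop56, and the one with the largest SD between replicates, Nop58. Nop56 and Nop58 are homologous core proteins of every box C/D snoRNP. Nop56 was listed at 219.9, 225 and 224 FPKM in the PBS libraries and 196, 197 and 202 FPKM in the nanoparticle libraries, all nanoparticle libraries lower (limma: log2 fold change -0.17, SE 0.05, adjusted p = 0.0086). Nop58 had 49.8, 43.9 and 45.0 FPKM in the PBS libraries and 51.9, 70.5 and 89.0 FPKM in the nanoparticle libraries. The groups of Nop58 do not overlap, but nanoparticle replicate 1 was only just above the highest PBS library while replicate 3 was far above it (limma: log2 fold change 0.57, SE 0.16, adjusted p = 0.0077). In PBS, Nop56 stood above Nop58 in every library, and their distance was smaller in the nanoparticle libraries. Nop10, the smallest core protein of the box H/ACA class, had 67.9, 73.1 and 64.3 FPKM in the PBS libraries and 62.9, 64.8 and 60.5 FPKM in the nanoparticle libraries. Nop10 did not pass (limma: log2 fold change -0.12, SE 0.06, adjusted p = 0.095) and passed as lower with the block (limma adjusted p = 0.025 with the replicate block). Processed pseudogenes match Nop56 over 326 and 331 bases at 99.7% and 94.0% identity.

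Several of these genes carry snoRNAs inside their own span. Annotated snoRNA genes lie on the same strand within 4 of the 44 genes (9.09%, beside 1.99% of tested genes): 5 in Nop56, 4 in Nop58, 3 in Gnl3 and 1 in Nop53. One box C/D snoRNA from each of the 2 box C/D core genes is shown (GENCODE M21, GRCm38), since the proteins these genes encode bind this class of RNA. Capitals mark the letters TGATGA of the C box and the last CTGA, the D box. Snord57 in Nop56 and Snord70 in Nop58 were also searched, held no exact TGATGA and are not shown. Snord110 lies at chr2:130275506-130275573 within Nop56 and Snord11 at chr1:59704790-59704873 within Nop58, both on the plus strand.
Snord110: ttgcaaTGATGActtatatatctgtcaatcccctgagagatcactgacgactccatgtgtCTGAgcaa
Snord11: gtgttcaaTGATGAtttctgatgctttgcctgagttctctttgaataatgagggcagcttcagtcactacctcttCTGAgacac

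The libraries were made from messenger RNA and no level is given here for these snoRNAs. Their hosts went apart, with Nop58 higher and Nop56 and Gnl3 lower, while Nop53 did not pass. Assembly factor genes had a median exonic length of 3912 bases, beside 4434 bases for all genes tested, and a median of 13.5 exons in the transcript with the most exons, beside 9.

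The 2 genes under the expression filter were Nol3, listed at 0.016, 0 and 0 FPKM in PBS and 0 in all 3 nanoparticle libraries, and Nol4, listed at 0 in all 3 PBS libraries and at 0.0297, 0.0108 and 0 FPKM in nanoparticle libraries. Neither was tested. Nol4l, the gene named after Nol4, was low, at 1.56, 1.34 and 1.45 FPKM in the PBS libraries and 1.27, 1.29 and 1.42 FPKM in the nanoparticle libraries. Its groups overlap (limma adjusted p = 0.42). Of the 4 genes with no assumed assembly role, none was called: Gnl1 and Nol4l did not pass, and the other two were not tested.

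Some known complexes held both rises and falls. The complexes below were put together from textbook knowledge after the values were seen, so they are a description. Their calls stand beside 42.7% higher and 34.5% lower over all genes tested. How often other groups of genes are mixed in this way was not counted. In UTP-A, Utp4 and Utp15 rose, whereas Heatr1, Wdr43 and Wdr75, 3 further subunits that the naming rule does not take, fell. Heatr1, a HEAT-repeat protein also needed for RNA polymerase I transcription, went from 18.7 ± 0.907 to 13.7 ± 1.39 FPKM (log2 fold change -0.43, limma adjusted p = 7.8e-04). In UTP-B all 6 subunits had negative log2 fold changes, and 5 fell: Utp18, Utp6, Wdr36, Wdr3 and Pwp2. The WD-repeat gene Wdr36 went from 41.4 ± 1.48 to 29.1 ± 1.148 FPKM (log2 fold change -0.50, limma adjusted p = 2.5e-05), and Tbl3 did not pass (limma adjusted p = 0.17). Pwp2 and Wdr3 had small changes of -0.15 and -0.18 (limma adjusted p = 0.039 and 0.034).

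Emg1, a methyltransferase that binds Nop14, fell from 204 ± 6.02 to 133 ± 5.19 FPKM while Nop14, Noc4l and Utp14a rose. In the box C/D core, Fbl, the methyltransferase fibrillarin, fell from 279 ± 15.1 to 164 ± 10.2 FPKM (log2 fold change -0.76, limma adjusted p = 2.8e-06), and Snu13 fell by 0.16 on the log2 scale (limma adjusted p = 0.033), against the rise of Nop58. In the H/ACA core, Dkc1, the pseudouridine synthase dyskerin, went from 52.1 ± 1.09 to 37.2 ± 3.37 FPKM. Nhp2 and Gar1 fell by 0.51 and 0.86 on the log2 scale, and Nop10 did not pass. In the Mpp10 group Utp3 rose, Imp3 fell (log2 fold change -0.40, limma adjusted p = 0.0039), and Mphosph10 and Imp4 did not pass.

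**Figure D4:**
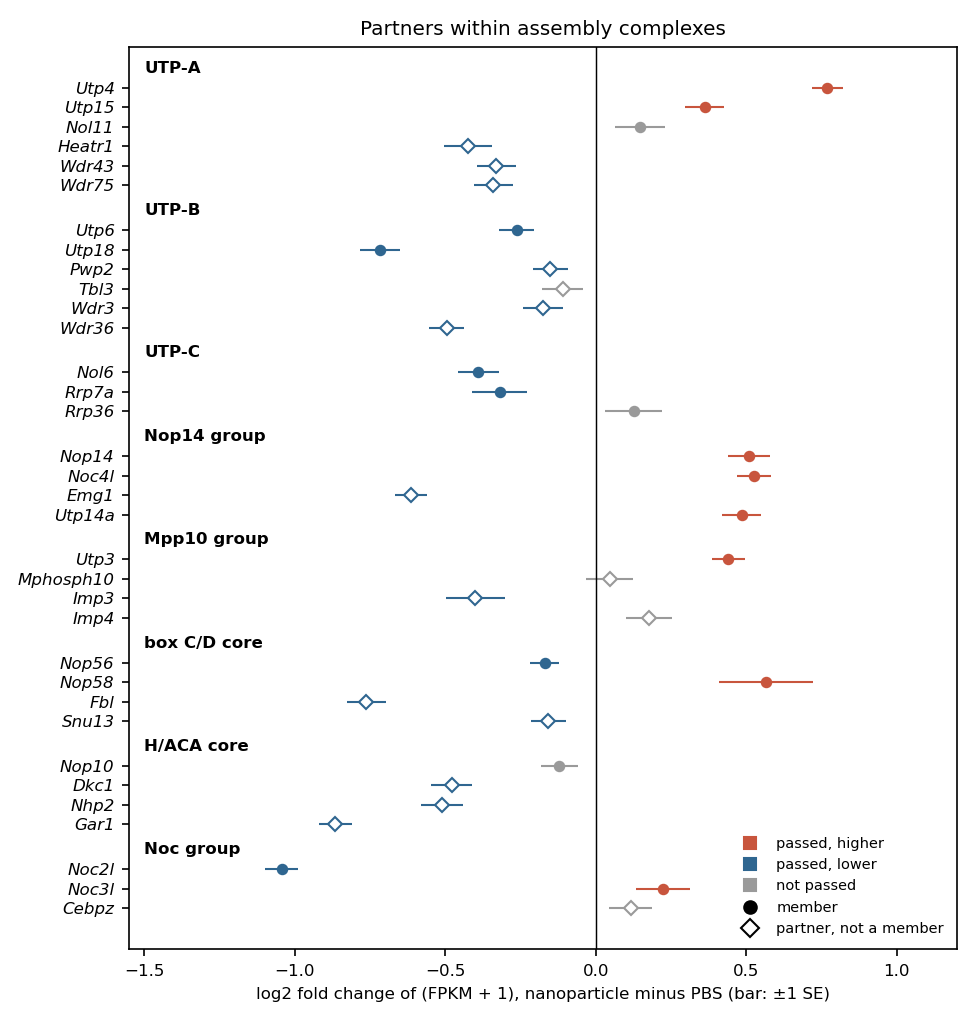
Log2 fold change (nanoparticle minus PBS on the log2(FPKM + 1) scale, bars of 1 SE) of the genes of 8 assembly complexes, with filled circles for genes taken by the naming rule and open diamonds for their partners. UTP-B lies on the negative side in all 6 subunits, as does the H/ACA core in all its genes. UTP-A, the Nop14, Mpp10 and Noc groups and the box C/D core each hold both rises and falls. Over all genes tested 42.7% were called higher and 34.5% lower.

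Other genes of the pathway were counted in 6 lists. Their counts stand beside 42.7% higher and 34.5% lower among all genes tested, with a median log2 fold change of 0.076. Among 40 tested partners of the small subunit processome 13 rose and 19 fell, and the median change was -0.11 on the log2 scale. Under median-ratio scaling these counts were 8 and 21. Ngdn and Fcf1, both of early 40S assembly, rose from 38.3 ± 1.12 to 70.9 ± 1.65 FPKM and from 101 ± 0.929 to 164 ± 3.46 FPKM. The falls with the smallest p in that list were those of Emg1 and Rrs1, which went from 71.9 ± 1.03 to 50.7 ± 0.709 FPKM. Of 57 partners of 60S assembly 21 rose and 13 fell (median 0.036), but 16 rose and 22 fell under median-ratio scaling, and 16 and 20 under upper quartile scaling. Sbds, which readies the 60S subunit for translation and is mutated in Shwachman-Diamond syndrome, rose from 24.5 ± 0.970 to 54.1 ± 0.896 FPKM. Znhit3, listed both here and among the snoRNP partners, rose from 21.6 ± 1.95 to 39.0 ± 3.14 FPKM. Heatr3 and Ppan fell, from 33.2 ± 1.69 to 18.1 ± 0.399 FPKM and from 96.8 ± 4.51 to 54.1 ± 4.23 FPKM.

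Among 17 snoRNP partners 12 fell and 3 rose (median log2 fold change -0.41). Gar1 fell from 71.9 ± 1.57 to 39.1 ± 1.79 FPKM and Nolc1, a nucleolar chaperone of snoRNPs, from 121 ± 3.23 to 66.7 ± 5.09 FPKM. Taf9, better known as a subunit of general transcription complexes, rose in that list from 2.59 ± 0.555 to 7.16 ± 1.64 FPKM. The RNA polymerase I list had 6 rises and 7 falls among 22 (median -0.026), and 3 and 10 under median-ratio or 3 and 9 under upper quartile scaling. Ubtf, the factor that holds ribosomal DNA open, fell from 66.1 ± 2.19 to 38.5 ± 0.795 FPKM and the second-largest subunit gene Polr1b from 20.7 ± 0.658 to 10.3 ± 0.572 FPKM, while Polr1h rose from 28.9 ± 0.937 to 52.1 ± 5.13 FPKM and Taf1b from 10.9 ± 0.548 to 15.2 ± 1.35 FPKM.

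In the nuclear exosome list, whose enzymes trim ribosomal RNA precursors, 13 of 18 fell and 1 rose (median log2 fold change -0.28). C1d and Exosc7 fell from 19.6 ± 0.913 to 7.92 ± 0.460 FPKM and from 48.9 ± 4.53 to 22.1 ± 1.11 FPKM. The rise was Mphosph6, from 26.0 ± 0.723 to 29.0 ± 1.01 FPKM (limma adjusted p = 0.035), a call lost under median-ratio and upper quartile scaling. Without PBS replicate 1 or 3 or nanoparticle replicate 1 or 2 no gene of the list was called higher. Of 79 cytosolic ribosomal protein genes tested 58 fell and 2 rose (median -0.39). Rpl22l1, a paralog of Rpl22, fell from 97.4 ± 5.56 to 23.7 ± 1.93 FPKM and Rps4x from 1024 ± 20.98 to 591 ± 2.62 FPKM. The rises there were Rplp1, from 1698 ± 94.6 to 2102 ± 306 FPKM, and Rpl29, from 19.4 ± 1.153 to 23.0 ± 1.83 FPKM, and neither call held under median-ratio or upper quartile scaling. The number of ribosomal protein genes called higher ran from 0 without PBS replicate 3 or nanoparticle replicate 1 to 5 without nanoparticle replicate 3. Ribosomal protein genes have many near-identical pseudogenes, so their single values are uncertain. No test of a whole list was made, and the difference between lists was not tested.

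**Figure D5:**
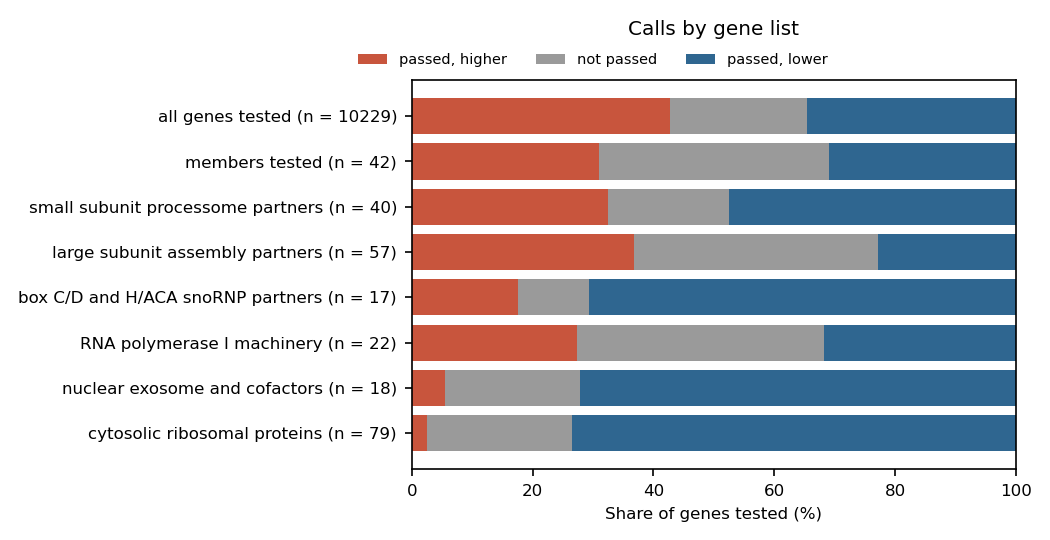
Share of tested genes that rose, fell or did not pass (stacked bars to 100%), for all 10229 genes tested, the 42 assembly factors and 6 further lists. Falls take 58 of 79 ribosomal protein genes and 13 of 18 exosome genes, whereas the assembly factors have 13 of 42 on each side.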

How the data were processed

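RNA from 6 RAW264.7 libraries was extracted with TRIzol and sequenced after mRNA enrichment, per the labels' protocols. The submitters' processing notes name STAR, featureCounts, GRCm38 and mm10, with no versions. The values that the authors deposited, 1 column per library, were read as FPKM (normalized to transcript length and library size) although the header names no unit. That reading rests on non-whole values and unequal column sums, and TPM with rows removed could not be told apart from it. The column for PBS replicate 1 carries a suffix that the labels do not explain. The sources used here state no sequencing depth. Library sizes from 5e+06 to 6e+07 fragments were tried. None gave whole fragments, within 0.05, for more than 36.4% of low values, so no count test was run. The best size for PBS replicate 2, 5.94e+07, lay near the upper end, and sizes beyond that range were not tried. The 509 rows without Ensembl identifiers (0.427% to 0.497% of FPKM) were left out.

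Values were tested as log2(FPKM + 1) with limma 3.58.1 (R 4.3.3), intensity trend, treatment as the only term, two-sided, where the mean over libraries reached 1 FPKM; the pseudocount makes the fold changes of low genes too small. The fit was also run on simulated data with independent noise and few changed genes, which does not test the scaling or the replicate structure. The labels do not say what replicate numbers share. Same-numbered deviations from the group means correlated at 0.13, 0.11 and 0.35. PBS replicate 2 correlated more with nanoparticle replicate 1 (0.134) than with its own number, so these values do not settle whether the numbers are pairs. The main fit did not pair them, and the replicate block was run as an alternative because both groups use the same numbers. Blocked values are printed where they change a call. Coordinates and overlaps came from GENCODE M21, where all 44 genes were found, promoters from RefSeq. The sources used here do not say whether counting used strand. Genes and lists were chosen with earlier results of these data known. Library values are given for the 8 largest rises and falls, the snoRNP and Gnl genes, homologous pairs and genes that did not pass; lists name up to 2 genes per direction with the smallest p. Rrs1, a 60S factor, and Taf9 sat in lists they fit loosely. Python 3.11.15, pandas 2.3.3 and matplotlib 3.10.9 were used.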

Additional observations from a re-analysis of the deposited data

How the results depend on the processing

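Alternatives were the pseudocount (0.1 or 10), the filter (none or a mean of 5), 3 scalings, no intensity trend, the replicate block, and leaving out each library. Of the 26 assembly factors called, 23 kept direction and call in all of them, and Noc3l, Rrp1 and Rrp8 lost the call in some. Nop9 also passed as lower after rescaling to TPM and Utp14b as higher without the intensity trend. The count of rises ran from 10 to 19 and that of falls from 13 to 18. The replicate block gave 19 and 16, included all 26 calls, and changed no other call of an assembly factor than the 9 given above. The median log2 fold change of the assembly factors turned to -0.047 with median-ratio and -0.025 with upper quartile scaling. That of all genes tested also turned negative, from 0.076 to -0.038 and -0.018. Genes that did not pass changed sign as follows. With median-ratio scaling, log2 fold changes were -0.021 for Nop2, -0.080 for Nop53, -0.066 for Gnl1, -0.029 for Nol7, -0.0081 for Cebpz and -0.078 for Mphosph10. Upper quartile scaling gave -0.058 for Nop53, -0.044 for Gnl1, -0.0070 for Nol7 and -0.056 for Mphosph10. With 1 library left out, Nop53 ran from -0.012 (without PBS replicate 3) to 0.108, Gnl1 from -0.018 (without nanoparticle replicate 1) to 0.129 and Mphosph10 from -0.030 (without nanoparticle replicate 3) to 0.121. The cause was not tested. List counts that moved by over 1.5 times stand beside the lists above; of the others, ribosomal protein rises numbered 4 after rescaling to TPM and 1 without PBS replicate 2 or nanoparticle replicate 2, and exosome rises 2 with the block or without nanoparticle replicate 3. Unknown depth limits what can be said of the low genes Utp14b, Nol4l, Nol3 and Nol4.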
